A study of Mus musculus with 20 samples.

Results

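Among the regions of open chromatin mapped in this series, 3311 of 335858 were open at the end of retroviral transduction and at no later sampled day beyond Day1. They were chosen by the presence or absence of peaks. Peaks from the 20 libraries were joined into one region wherever they shared 1 bp or more, and a region was called open in each library with a peak inside it. A Day0-only region, as they are called here, was open in both Day0 libraries and closed in mouse embryonic fibroblasts (MEFs), in all 3 embryonic stem cell (ESC) libraries and in all 12 time-course libraries from Day3 on. It could be open or closed on Day1. The name is shorthand for the rule and does not mean closed on Day1, since only 1801 (54.39%) had no Day1 peak in either path. The rule therefore used every library except the pair from Day1, and the presence of Day0 peaks and their absence elsewhere is a description of how the regions were selected, not a result.

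ATAC-seq marks DNA that the Tn5 transposase can reach, and a peak is a place where its insertions pile up over the local background. Most such places away from promoters are enhancers, where transcription factors keep nucleosomes aside. In fibroblasts many enhancers carry binding sequences of AP-1 (FOS and JUN dimers, which respond to serum and stress), TEAD (the DNA-binding partners of YAP and TAZ) and RUNX factors. OCT4 binds the octamer sequence, and retroviral vectors enter dividing cells and integrate a DNA copy of their insert into the genome.

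The study followed MEFs on the way to pluripotency with OCT4 (the product of Pou5f1) and either wild-type NANOG or NanogN70, a fusion in which the N-terminal, BRG1-binding piece of SS18 is joined to the N-terminus of NANOG. BRG1 is the ATPase of the BAF chromatin remodelling complex. MEFs came from embryos with a GFP reporter of Oct4 (OG2), the factors were delivered with pMXs retroviral vectors packaged in Plat-E cells, and Day0 was the end of infection, when serum-containing fibroblast medium was exchanged for a defined reprogramming medium. Each path, called Nanog and NanogN70 here, was sampled once on each of 8 days between Day0 and Day12. One MEF library and 3 ESC libraries from OG2 embryos served as the start and the reference, the latter grouped by their titles since their source field names MEFs. Apart from ESCs, every group was a single bulk library, so no difference between days or paths had a replicate check. The paper also describes a later switch, during the time course, to the medium used to maintain ESCs. Transduction, both factors, time in culture and the media before and after Day0 cannot be told apart in this design. All Day0 cells had received OCT4 together with NANOG or NanogN70.

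The deposited files hold peak calls and summit heights but no read numbers, so depth is unknown, and a closed region is one in which no peak was called. Libraries held from 44126 peaks in NanogN70 Day10 to 125467 in MEFs, with 69575 in Nanog Day0 and 107038 in NanogN70 Day0. Start sites of 20 fibroblast marker genes were open in 20 cases in MEFs, 17 in Nanog Day0 and 20 in NanogN70 Day0, and in 15 to 18 in the ESC libraries. Start sites of 29 pluripotency genes were open in 28 to 29 cases in the ESC libraries and in 20 in MEFs, so open start sites of these lists separate the cell types only in part. The NanogN70 Day3 library stood apart, with open start sites at 15 of 15 T lymphocyte markers against 2 to 5 in every other time-course library. Without it the rule gave 3417 regions in place of 3311. In a bulk library a weak peak from all cells and a strong one from few cells cannot be told apart.

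Sequences of 10 Day0-only regions are shown first, since the results below turn on which short consensus sequences lie under the summits. They were read from the mouse reference GRCm38 (mm10), + strand, 5′ to 3′, each covering 101 bp centred on the summit of the Day0 peak with the higher pileup. They are the regions with the highest Day0 or Day1 peaks, relative to the library median, among those that hold the consensus, lie mostly outside repeats and touch no exon, and they were picked after their values were seen. Capitals mark the consensus of each set within 25 bp of the summit. Matches to other consensus sequences are not marked, such as an AP-1 match in the same window of the Zfand3 sequence. The first set holds the octamer (OCT), ATGCAAAT or its reverse complement:
Mrtfb chr16:13260454-13260554: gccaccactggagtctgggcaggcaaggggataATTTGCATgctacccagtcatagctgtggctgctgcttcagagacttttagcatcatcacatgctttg
Fgfr1 chr8:25468103-25468203: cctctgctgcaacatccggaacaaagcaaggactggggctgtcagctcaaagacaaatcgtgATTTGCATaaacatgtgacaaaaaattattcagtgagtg
Immp2l chr12:41292524-41292624: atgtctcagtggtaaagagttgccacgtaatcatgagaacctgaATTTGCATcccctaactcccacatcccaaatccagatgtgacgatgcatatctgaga
Zfand3 chr17:30186592-30186692: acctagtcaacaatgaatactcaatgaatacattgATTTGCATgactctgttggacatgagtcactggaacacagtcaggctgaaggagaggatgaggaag

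The second set holds the AP-1 consensus TGANTCA and had a peak in both Day1 libraries:
Ocel1 chr8:71370773-71370873: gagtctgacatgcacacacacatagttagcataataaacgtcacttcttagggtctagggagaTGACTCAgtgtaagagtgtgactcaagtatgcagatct
Fam76a chr4:132920312-132920412: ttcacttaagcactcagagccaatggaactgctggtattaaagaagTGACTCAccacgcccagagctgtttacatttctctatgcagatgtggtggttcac
Dusp6 chr10:99435928-99436028: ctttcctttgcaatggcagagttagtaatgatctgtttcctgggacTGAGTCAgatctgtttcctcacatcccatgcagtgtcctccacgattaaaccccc

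The third set holds the TEAD consensus GGAATG or its reverse complement and had no peak in either Day1 library:
Cox20 chr1:178317325-178317425: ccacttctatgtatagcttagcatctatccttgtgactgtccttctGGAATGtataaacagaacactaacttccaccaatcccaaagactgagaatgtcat
Dip2c chr13:9601977-9602077: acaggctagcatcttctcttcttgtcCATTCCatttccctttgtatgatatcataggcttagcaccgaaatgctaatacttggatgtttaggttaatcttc
Smdt1 chr15:82346754-82346854: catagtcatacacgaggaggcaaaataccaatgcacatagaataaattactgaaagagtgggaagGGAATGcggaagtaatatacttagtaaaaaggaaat

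The Mrtfb, Immp2l, Zfand3 and Dip2c regions lie in introns, and those of Ocel1, Fam76a, Cox20 and Smdt1 within 2 kb of a protein-coding start site. The Fgfr1 and Dusp6 regions are intergenic and take the name of the gene with the nearest start site. Summit pileup, the number of tags stacked at the highest point of the peak, was 13 in Nanog Day0 and 17 in NanogN70 Day0 at the Mrtfb region, with no Day1 peak in either path. At the Immp2l region it was 10 and 14 on Day0 and 9 and 16 on Day1. The octamer-bearing regions thus included ones closed again within a day and ones still open on Day1.

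The rule removed regions in steps. Of 48393 regions open in both Day0 libraries, 8108 (16.75%) were closed in MEFs, 7449 (15.39%) were also closed in ESCs, and 3311 (6.842%) were also closed from Day3 on. With 1 ESC library held out of the rule, between 0.1207% and 0.6303% of the regions kept by the rest of the rule were open in the held-out library (mean 0.3407% ± 0.2618, SD, n = 3). Among the libraries that had to be closed, MEFs kept out by far the most regions: 7021 were open in MEFs and otherwise met the rule, with a median MEF peak score of 257.7 against 129.5 over all MEF peaks. The score grows with the negative log10 of the MACS p-value.

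**Figure D1:**
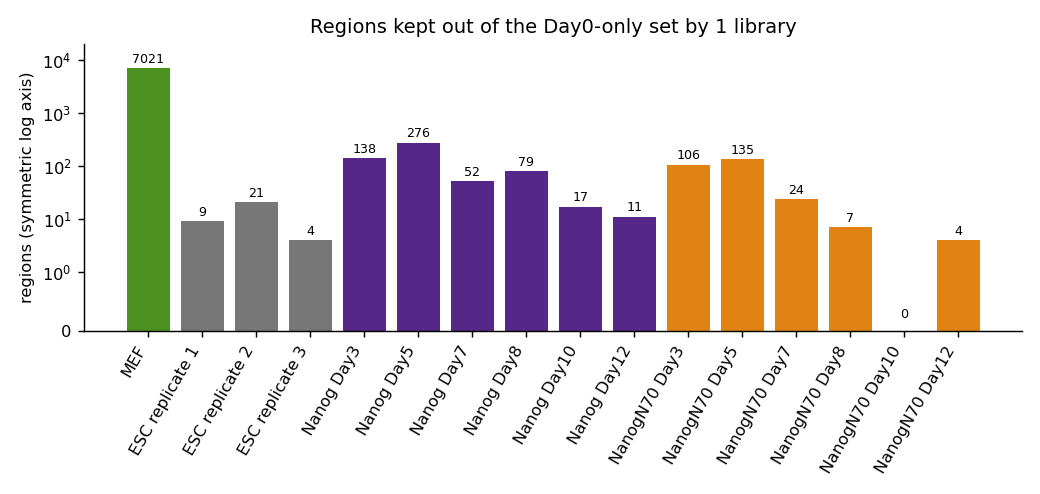
Number of regions (symmetric log axis) that met the rule except for a peak in 1 library that had to be closed, by that library, with MEF in green, ESC in grey, the Nanog path in purple and the NanogN70 path in orange. The MEF library kept out 7021 regions, Nanog Day5 kept out 276 and NanogN70 Day10 kept out 0.

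Just outside the rule on the later side, Nanog Day5 alone kept out 276 regions, Nanog Day3 138, NanogN70 Day5 135 and NanogN70 Day3 106, with 0 to 79 for each later library. Their peaks there were weak, with median scores of 55.48 in Nanog Day12 to 71.39 in NanogN70 Day3, while the lowest score deposited was 50. ESC replicates 1, 2 and 3 kept out 9, 21 and 4 regions, with median scores of 67.96, 60.97 and 60.45. The edge between Day0-only regions and those seen again later thus ran through peaks near the calling threshold.

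The requirement for both Day0 libraries also kept regions out. Another 18369 regions met every closed condition but had a peak in NanogN70 Day0 alone of the pair, and 2934 in Nanog Day0 alone. Of regions that were open in NanogN70 Day0 and met the closed conditions, 15.27% had a peak in Nanog Day0, against 50.93% of all regions open in NanogN70 Day0. In the other direction the shares were 53.02% and 81.37%. Since the Day0 libraries differ in path and in their number of peaks, path and peak number cannot be told apart as the source of these one-library regions.

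The Day0 peaks of the Day0-only regions were low. In Nanog Day0 the median summit pileup was 6 tags against 8 over all peaks of that library and 9 over all regions open in both Day0 libraries. In NanogN70 Day0 it was 9, equal to the library median, against 13 over all regions open in both. A score of at least 100 was reached by 26.52% of them in Nanog Day0 and 63.97% in NanogN70 Day0, against 61.47% and 80.51% of all regions open in both. The NanogN70 peak was the higher at 2270 regions, the Nanog peak at 651, and 390 had equal pileups. Over all regions open in both Day0 libraries NanogN70 was the higher at 34776 and Nanog at 9746, and the median ratio of NanogN70 to Nanog pileup was 1.333 in both sets.

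Summits of the 2 Day0 libraries were compared within each region. The median distance between summits was 33 bp, and 61.61% of Day0-only regions had them within 50 bp, beside 28 bp and 64.54% over all regions open in both Day0 libraries. Across the 3311 regions pileups in the 2 libraries had a Pearson correlation of 0.3796 and a Spearman correlation of 0.3178, against 0.7832 and 0.7222 over all regions open in both. These are descriptions across regions that share both libraries, and the narrower range of heights among weak peaks was not adjusted for. Day0 and Day1 summits were a median 31 bp apart in the Nanog path (769 regions) and 35.5 bp in the NanogN70 path (1240 regions).

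Day1 libraries took no part in the rule. The rule did select Day0-only regions for closure in MEFs, in ESCs and from Day3 on, unlike all regions open in both Day0 libraries. A lower Day1 share than in that larger set is therefore favoured by the selection. A peak was present on Day1 in 769 Day0-only regions in the Nanog path, 23.23% (exact 95% binomial interval 21.8 to 24.7), and in 1240 in the NanogN70 path, 37.45% (35.8 to 39.13). Over all regions open in both Day0 libraries the shares were 69.1% and 67.7%. The shares depended on which Day0 library chose the regions: without Nanog Day0 in the rule the Nanog Day1 share was 7.851% and the NanogN70 Day1 share 25.84%, and without NanogN70 Day0 they were 16.16% and 21.39%. Intervals here and below cover counting error over regions only, and regions of one library are not replicates of the path.

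Comparison classes put these shares in place, with the same limit, since each class was itself selected by peaks in other libraries. Of 4138 regions that were open in both Day0 libraries and closed in MEFs and ESCs but also open in at least 1 library from Day3 on, 69.91% were open in Nanog Day1 and 80.23% in NanogN70 Day1. Of the 7021 regions that were open in MEFs and both Day0 libraries and closed in ESCs and from Day3 on, 28.1% (27.05 to 29.17) and 23.76% (22.77 to 24.77) were. So NanogN70 Day1 held the larger share in both classes that were closed in MEFs, and Nanog Day1 the larger share in the class that was open in MEFs. Each path had 1 library per day, so the difference between paths was not tested against replicate error.

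The Day1 share went with the height of the Day0 peak. Among Day0-only regions it ran from 16.51% at a Nanog Day0 pileup of 4 to 5 through 28.03% at 8 to 9 to 57.41% at 15 or more. In the NanogN70 path the same bins gave 12.87%, 32.47% and 73.77%. Over all regions open in both Day0 libraries the values were 42.2%, 62.27% and 94.6% in the Nanog path and 24.13%, 47.13% and 92.06% in the NanogN70 path. At every height the Day0-only regions were less often open on Day1 than all regions of that height, a gap favoured by their selection for closure elsewhere. In the NanogN70 path the Day0-only regions lay above the MEF-open class, whose shares were 5.174%, 16.69% and 53.75%. In the Nanog path the MEF-open class had 18.42%, 26.2% and 49.53%, with intervals that overlapped those of the Day0-only regions.

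**Figure D2:**
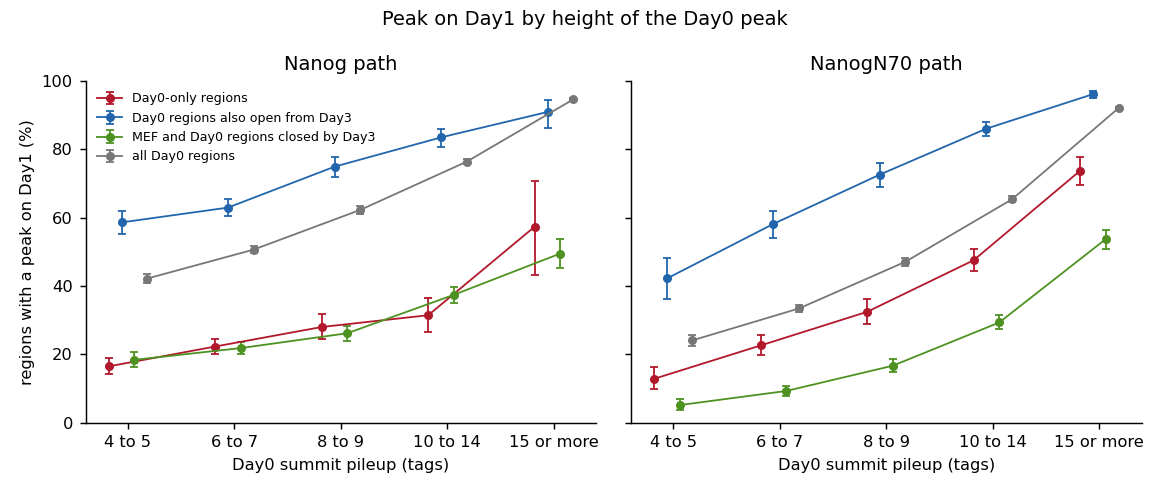
Share of regions with a peak on Day1 (%, y axis) by the summit pileup of their Day0 peak in the same path (tags, x axis), for Day0-only regions (red), regions also open from Day3 (blue), regions open in MEFs and on Day0 and closed by Day3 (green) and all regions open in both Day0 libraries (grey), with exact 95% binomial intervals. Red points run from 16.51% to 57.41% in the Nanog path and from 12.87% to 73.77% in the NanogN70 path, below the blue and grey points in each bin.

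By pattern, 499 Day0-only regions (15.07%) kept a peak in both Day1 libraries, 270 (8.155%) in Nanog Day1 only, 741 (22.38%) in NanogN70 Day1 only and 1801 (54.39%) in neither. Over all regions open in both Day0 libraries these shares were 58.08%, 11.07%, 9.598% and 21.26%. Median Day0 pileups in the Nanog and NanogN70 libraries were 7 and 11 for the regions open in both Day1 libraries, 7 and 7 for Nanog Day1 only, 6 and 11 for NanogN70 Day1 only, and 6 and 8 for neither. The regions kept in one path were thus those whose Day0 peak in that path was relatively high. The 1801 Day0-only regions of the last pattern had called peaks in the Day0 libraries and nowhere else.

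The Day0-only regions were mostly away from start sites and rich in A and T. Median width was 290 bp (quartiles 224 and 388). A region is the union of its peaks over all libraries, and the rule lets a Day0-only region have peaks in at most 4, so its width is bounded by the selection and cannot be compared directly with the 474 bp for regions also open from Day3, 381 bp for the MEF-open class and 583 bp for all regions open in both Day0 libraries. Only 127 (3.836%, 3.207 to 4.547) had their summit within 2 kb of a protein-coding start site, against 27.54% of all Day0 regions, 3.746% of those also open from Day3 and 4.002% of the MEF-open class. Introns held 48.35% and intergenic DNA 44.88%, exons 2.93%, and 24 summits (0.7249%) lay in coding sequence, against 33.94%, 35.8%, 2.726% and 1.813% of all Day0 regions. The low share at start sites was therefore common to the Day0-only regions and both comparison classes.

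Median GC content of the 301 bp around the summit was 39.53%, beside 41.53% for regions also open from Day3, 42.52% for the MEF-open class and 48.17% for all Day0 regions. The ratio of observed to expected CpG was 0.1256, 0.1676, 0.1564 and 0.2633 in the same order. Windows that were at least 50% repeat-masked made up 6.524% of the Day0-only regions, 5.969% of those also open later, 3.874% of the MEF-open class and 2.763% of all Day0 regions. On the X chromosome 101 of 971 Day0 regions (10.4%, 8.552 to 12.49) were Day0-only, the highest share among chromosomes 1 to 19 and X, and on chromosome 17 it was 4.971% (4.04 to 6.043), the lowest.

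Consensus sequences within 25 bp of the Day0 summit were searched on both strands, and a match is a description of the sequence and not evidence of binding. AP-1 was found at 392 Day0-only regions (11.84%, 10.76 to 12.99), close to the 11.1% of all Day0 regions, above the 6.185% of all regions in the series, and below the 19.9% (18.97 to 20.85) of the MEF-open class. By GC content the comparison with all Day0 regions went both ways, with 11.23% (9.674 to 12.94) against 14.76% (14.06 to 15.48) at 35 to 45% GC, and 13.05% (11.23 to 15.05) against 15.13% (14.63 to 15.64) at 45 to 55%, where the intervals overlapped, but 11.76% (6.583 to 18.95) against 4.477% (4.175 to 4.794) above 55%. TEAD was found at 7.339% (6.474 to 8.281), between the 4.809% of regions also open from Day3 and the 11.04% of the MEF-open class and beside 5.752% of all Day0 regions. At 35 to 45% GC it was 7.353% (6.082 to 8.795) against 7.739% (7.216 to 8.287) of all Day0 regions, at 45 to 55% it was 8.247% against 7.204%, and above 55% it was 8.403% (4.103 to 14.91) against 3.111% (2.858 to 3.379). RUNX (TGTGGT) was found at 7.883%, beside 6.138%, 8.005% and 5.273% in regions also open later, the MEF-open class and all Day0 regions. AP-1 and TEAD shares of the Day0-only regions thus lay between those of the MEF-open class and those of regions also open later, where AP-1 was at 9.594% (8.713 to 10.53). The RUNX interval overlapped that of the MEF-open class. Against regions also open later, AP-1 intervals overlapped at 35 to 45% GC (8.051 to 10.86 there) and at 45 to 55% (9.221 to 12.19). TEAD intervals overlapped at 35 to 45% (4.423 to 6.624) and not at 45 to 55% (6.781 to 9.912 against 4.071 to 6.202).

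The octamer ran the other way. It was found at 51 Day0-only regions (1.54%, 1.149 to 2.02) and 90 of those also open from Day3 (2.175%, 1.752 to 2.667), against 14 of the 7021 in the MEF-open class (0.1994%, 0.1091 to 0.3343), 0.6325% of all Day0 regions and 0.6612% of all regions. The octamer is rich in A and T. Among windows of 51 bp with 35 to 45% GC the shares were 2.072% (1.412 to 2.929) for Day0-only regions, 2.955% (2.208 to 3.867) for those also open later, 0.2002% (0.06505 to 0.4667) for the MEF-open class and 1.375% (1.154 to 1.627) for all Day0 regions. At 45 to 55% GC they were 0.8807% (0.4404 to 1.57) for Day0-only regions and 0.1991% (0.0801 to 0.4099) for the MEF-open class. Below 35% GC the intervals of these classes overlapped, at 2.013% (0.9247 to 3.788) and 0.4926% (0.05971 to 1.768), and above 55% both had 0 matches. At 35 to 45% GC the interval of the Day0-only regions overlapped that of all Day0 regions. The share under other settings lay between 1.315% and 2.093%.

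**Figure D3:**
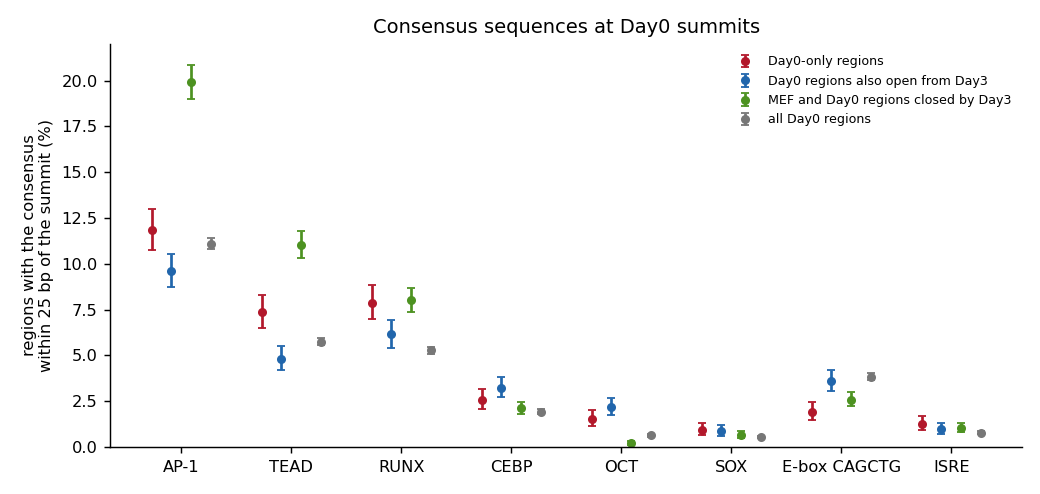
Share of regions (%, y axis) with each consensus within 25 bp of the Day0 summit, for Day0-only regions (red), regions also open from Day3 (blue), regions open in MEFs and on Day0 and closed by Day3 (green) and all regions open in both Day0 libraries (grey), with exact 95% binomial intervals. AP-1 and TEAD are highest in the green class (19.9% and 11.04%), and the octamer is at 1.54% in red and 2.175% in blue against 0.1994% in green.

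Other consensus sequences were rarer. C/EBP (TTGCNNAA) was found at 2.567% of Day0-only regions against 1.924% of all Day0 regions, SOX (ACAATGG) at 0.9363% against 0.5477%, the E-box CAGCTG at 1.903% against 3.844%, and the interferon-type ISRE (GAAANNGAA) at 1.268% against 0.7792%. The ISRE interval (0.9157 to 1.711) overlapped those of regions also open later (0.6915 to 1.314) and of the MEF-open class (0.8032 to 1.29). ISRE shares were not split by GC content. At 35 to 45% GC the shares of Day0-only and all Day0 regions were 2.874% and 3.12% for C/EBP and 0.9358% and 0.9135% for SOX, with overlapping intervals. The NF-kB consensus, of the factor that drives inflammatory genes, was found at 10 regions (0.302%), against 0.5643% of all Day0 regions. No Day0-only region held the CTCF, NRF1, CRE or p53 consensus in this window (upper limit of the exact interval 0.1114% for each), beside 0.6697%, 0.1612%, 0.2687% and 0 of all Day0 regions.

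Sequence went with the fate on Day1. AP-1 was found at 16.43% (13.29 to 19.98) of Day0-only regions open in both Day1 libraries and at 54 of the 270 open in Nanog Day1 only (15.4 to 25.28%). It was found at 10.66% (8.532 to 13.11) of those open in NanogN70 Day1 only and 9.828% (8.492 to 11.3) of those closed in both. TEAD ran the opposite way, from 3.407% (1.997 to 5.399) of regions open in both to 9.384% (8.076 to 10.83) of regions closed in both. RUNX was even across the 4 patterns, at 7.407% to 8.232%, and the octamer was found at 1.215% to 2.204%. By the lower of both Day0 pileups, AP-1 was found at 11.21% (9.502 to 13.11) of regions with 4 to 5 tags and 11.24% (7.658 to 15.74) of those with 10 to 14.

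The highest Day0-only peak by far lay over a coding exon of Nanog, the gene that both retroviral mixes carried. The region spans 198 bp at chr6:122712568-122712765 and holds an exon of 87 bp (chr6:122712629-122712715) that codes for part of the DNA-binding homeodomain, with 61 and 50 bp of intron on its sides. It is shown with the exon in capitals, since this exon is also in the vector insert:
Nanog chr6:122712568-122712765: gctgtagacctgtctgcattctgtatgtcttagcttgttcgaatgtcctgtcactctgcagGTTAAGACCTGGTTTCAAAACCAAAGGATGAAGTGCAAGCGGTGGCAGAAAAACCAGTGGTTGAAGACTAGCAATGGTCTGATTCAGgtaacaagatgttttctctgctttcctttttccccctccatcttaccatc

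Its pileup was 152 in Nanog Day0 and 112 in NanogN70 Day0, 102 and 82 on Day1, and no peak was called in the other 16 libraries. Over the other Day0-only regions the highest pileup was 24 tags in Nanog Day0 and, at another region, 42 in NanogN70 Day0. Regions over the other coding exons of Nanog also had peaks in both Day0 libraries and none in MEFs, at 511, 559 and 390 tags in Nanog Day0 and 366, 428 and 332 in NanogN70 Day0. They kept peaks on Day3, of 79, 84 and 79 tags in Nanog and 39, 32 and 41 in NanogN70, which is why the rule left them out. No ESC library had a peak in any of these 4 regions, although a separate region that overlaps the exon with the coding start, and had no Day0 peak, had 33, 56 and 35 tags in the 3 ESC libraries. Tags from the vector insert and tags from the Nanog gene cannot be told apart over coding sequence.

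**Figure D4:**
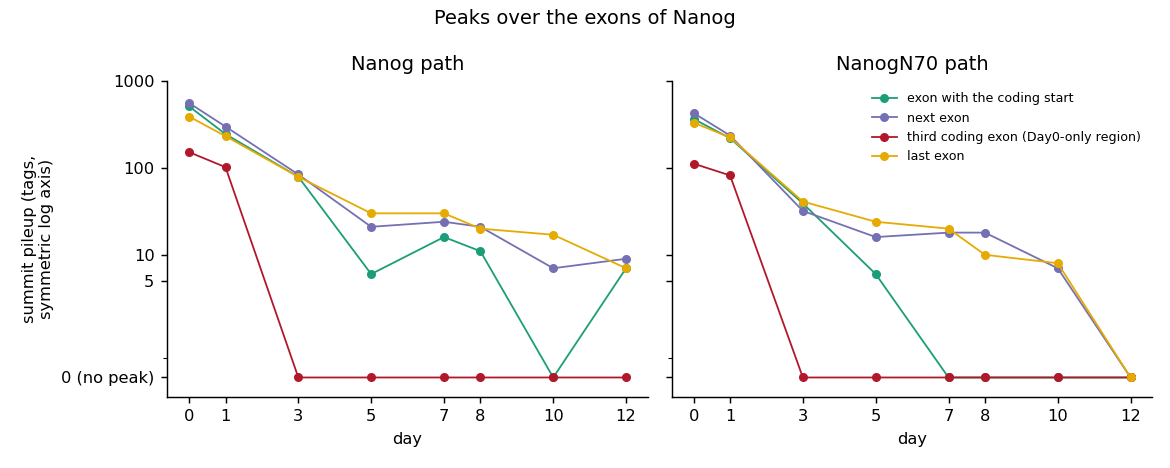
Summit pileup (tags, symmetric log axis) over 4 coding exons of Nanog by day in the Nanog path (left) and the NanogN70 path (right), with 0 where no peak was called. The Day0-only exon region (red) has 152 and 112 tags on Day0 and 102 and 82 on Day1, below the other exons on both days, and no peak from Day3 on.

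Away from Nanog, the highest Day0 peaks lay in intergenic DNA and introns, with 1 near a start site. Near Efna5, which encodes the membrane-bound ligand ephrin-A5, an intergenic region (chr17:62949183-62949895) had 22 tags in Nanog Day0 and 35 in NanogN70 Day0, then 9 and 16 on Day1. An intergenic region (chr10:126903593-126904249) close to Atp23, a mitochondrial protease gene, had 23 and 27 tags, then 16 and 9. A region near Slc5a6 (chr5:31029432-31030029), which encodes a vitamin transporter, had 20 and 26 tags, then 8 and 17. All 3 had lower pileups on Day1 than on Day0 in both paths.

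Others closed in one or both paths within a day. In an intron of Mex3c (chr18:73578457-73578972), an RNA-binding ubiquitin ligase gene, 23 and 33 tags on Day0 were followed by no peak in Nanog Day1 and 13 tags in NanogN70 Day1. In an intron of Cdc40 (chr10:40880573-40881141), a splicing factor gene, 18 and 22 tags were followed by no peak and 13. Near Osbpl9 (chr4:109210168-109210504), a lipid-transfer protein gene, 20 and 22 tags were followed by no peak and 5, and near the start of Cox20 (chr1:178317143-178317552), whose product helps assemble cytochrome c oxidase, 18 and 29 were followed by no Day1 peak in either. None of these 4 regions had a peak in Nanog Day1.

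Some of the named regions had a Day1 pileup as high as that of Day0 or higher in one or both paths. The highest Day1 peaks apart from Nanog lay at the start of Fam76a, where a region over an exon at the start site (chr4:132920675-132921130) had 17 and 26 tags on Day0 and 25 and 28 on Day1. A second region 547 bp from that start site (chr4:132920201-132920586) had 13 and 16 tags, then 16 and 12. Both hold the AP-1 consensus. A region 172747 bp from the start of Dusp6 (chr10:99435679-99436142), which encodes a phosphatase that inactivates ERK, had 6 and 9 tags, then 11 and 12, and holds AP-1 as well.

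Further members with high Day1 peaks were in introns of Utp20 (chr10:88780459-88781066), a ribosome biogenesis gene, with 12 and 20 tags on Day0 and 17 and 17 on Day1, and of Sh3pxd2b (chr11:32387273-32387645), an adaptor of invasive adhesion structures, with 11 and 32, then 15 and 13. Beside Ptges3 (chr10:128056558-128057072), which encodes an HSP90 co-chaperone, 15 and 28 tags were followed by 14 and 18. Near Ocel1 (chr8:71370559-71371013) 13 and 14 tags were followed by 13 and 21. The Ptges3 and Ocel1 regions hold AP-1, and one near a start site of Nedd4l (chr18:65051594-65052186), a ubiquitin ligase gene, holds the octamer, with 7 and 17 tags on Day0 and 12 and 13 on Day1. Of the 10 regions with the highest Day1 peaks in both paths, 5 held AP-1, beside 82 of all 499 open in both Day1 libraries. A region far from Ubash3b (chr9:41587904-41588739), a phosphatase gene, had 19 and 24, then 16 and 19.

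Of the 127 regions near start sites, 20 had a peak in both Day1 libraries, 13 in Nanog Day1 only, 32 in NanogN70 Day1 only and 62 in neither. At 1810062G17Rik (chr3:36477094-36477944) pileup was 18 and 34 on Day0, with no peak in Nanog Day1 and 11 in NanogN70 Day1. At Strada (chr11:106195272-106195800), a pseudokinase that activates LKB1, it was 14 and 33, then no peak and 7. At Mrpl52 (chr14:54425461-54426089), a mitochondrial ribosome gene, it was 16 and 19 with no Day1 peak. These regions lay 1145 to 1910 bp from the start site, beside the core promoter.

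Arhgap42, Sirt2, Fam149b and Uhrf1bp1l complete the named regions. The Arhgap42 region (chr9:9145194-9146005), in an intron, holds the C/EBP consensus and had 20 and 21 tags, then 10 and 11. The Sirt2 region (chr7:28769138-28769595), at a deacetylase gene, had 16 and 17, then 8 and 8. Fam149b (chr14:20349688-20350809) had 15 and 31, then no peak and 10, and Uhrf1bp1l (chr10:89746306-89746661) 15 and 16, then no peak and 7.

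Day0-only regions were spread over many genes. Of 21938 protein-coding genes 1797 (8.19%) had at least 1 in the gene body or within 10 kb of it, and 147 (0.67%) had 1 within 2 kb of a start site. Another Day0-only region lay within 10 kb for 239 of the 3311 (7.218%), so most stood alone. The genes with most of them were long genes, with Sgcd, which encodes delta-sarcoglycan of the muscle membrane, holding 10 of the 21 Day0 regions in its 1092717 bp and Prkg1, the cGMP-dependent kinase gene, holding 9 of 29. Adgrv1 held 7 of 16, Dlg2 7 of 28, Opcml 6 of 22, Adk 5 of 24 and Pak7 5 of 10. Cox10, a heme A synthesis gene of 116842 bp, was the exception in length and held 5 of only 6.

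Within Sgcd the 10 regions had Day0 pileups of 5 to 11 in Nanog and 6 to 21 in NanogN70, and 7 of them had no Day1 peak in either path. The highest (chr11:47389435-47389705) had 10 and 21 tags on Day0 and 4 and 7 on Day1. Within Cox10 a region (chr11:64040319-64040772) had 12 and 15 tags, then 9 and 11, and its neighbour (chr11:64019923-64020337) 13 and 17, then 6 and 9. The remaining 3 Cox10 regions had 5 to 7 tags in Nanog Day0. Clusters in one gene therefore mixed regions closed by Day1 with regions still open.

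Genes of the interferon, inflammatory, serum and p53 responses were counted in the same way. Of 29 interferon response genes and 30 NF-kB and inflammation genes found in the annotation, 0 had a Day0-only region in the body or within 10 kb, beside 45 and 55 Day0 regions of any kind. Of 30 AP-1, immediate early and serum response genes, 1 had one, and of 20 p53 response genes, 1 had one. These are to be read against 8.19% of all genes, and long genes have more room for regions. The upper limits of the exact intervals were 11.94% for 0 of 29 and 11.57% for 0 of 30, so a share equal to that of all genes could not be told from none.

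The AP-1 list gene was Fosl1, which encodes the AP-1 subunit FRA-1, with a region 5427 bp from its start (chr19:5441937-5442258) at 7 and 12 tags on Day0, then no peak in Nanog and 13 in NanogN70 on Day1. The p53 list gene was Rrm2b, a ribonucleotide reductase subunit gene, with a region (chr15:37965375-37966000) at 13 and 19 tags, then no peak and 10. In both cases the peak was kept on Day1 only in the NanogN70 path.

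Of 30 TGF-beta, YAP and contractile genes, 4 had a Day0-only region (13.33%, 3.755 to 30.72), an interval that holds the 8.19% of all genes. Per 100 Day0 regions in or near its genes the list had 2.649, against 4.883 for all genes. The rate was 0 for the interferon, NF-kB, leukocyte, T lymphocyte and skeletal muscle lists. The AP-1, p53 and pluripotency lists also lay below all genes. Fibroblast markers had 5.0, endothelial 8.571, epithelial 10.0 and neuron markers 12.82. The endothelial, epithelial and neuron rates rest on only 3, 1 and 5 Day0-only regions, with 3 of the 5 in Syt1. No intervals were computed for these rates, so an excess at these markers cannot be told from counting error. In Tead1, a TEAD factor gene itself, an intronic region with AP-1 (chr7:112855727-112856032) had 9 and 16 tags on Day0 and 8 and 8 on Day1. In Ltbp2, encoding a latent TGF-beta binding protein of the matrix, it was 5 and 11, then no peak and 7. Near Postn, encoding the matrix protein periostin, it was 5 and 8, and in Wwtr1, encoding the TEAD coactivator TAZ, 6 and 5, both with no Day1 peak.

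Of 20 fibroblast markers 3 had one, in Prrx1 and Twist2, mesenchymal transcription factor genes, and beside Col5a1, a fibrillar collagen gene (interval 3.207 to 37.89%, which holds the 8.19% of all genes). Pileups on Day0 were 6 and 6 at Prrx1, 8 and 15 at Twist2, and 6 and 8 at Col5a1, where the summit holds AP-1. On Day1 the Prrx1 and Twist2 regions had 3 and 5 tags in Nanog and no peak in NanogN70. The one pluripotency gene of 29 with a Day0-only region was Nanog, through the exon region above.

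Markers of other lineages ranged from 0 genes of a list to 3 of 12, beside 8.19% of all genes. Of macrophage and general leukocyte, T lymphocyte and skeletal muscle markers 0 of 15, 0 of 15 and 0 of 12 had a Day0-only region. Of 12 endothelial markers 2 had one, Vwf (8 and 7 tags, and 8 and 5) and Erg (8 and 12), and of 12 epithelial markers 1, Cdh1, the E-cadherin gene (12 and 12). Of 12 neuron markers, 3 had one, with 3 regions in Syt1 of 4 to 7 tags in Nanog Day0, 1 in Elavl4 (8 and 16) and 1 in Map2 (6 and 6), in introns of long genes. No gene of any list had a Day0-only region at its start site.

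Open chromatin around the Day0-only regions was less frequent in MEFs than around Day0 regions as a whole. Another region within 10 kb was open in MEFs for 62.31% (60.63 to 63.96) of them, against 64.35% (62.87 to 65.82) of those also open later, with an overlapping interval, and 73.02% of all regions open in both Day0 libraries. It was open in Nanog Day0 for 51.74% of the Day0-only regions and in NanogN70 Day0 for 68.56%. The share was 37.24% in Nanog Day3, higher again at 48.44% in Nanog Day5, and 27.45% in Nanog Day12. In NanogN70 it was 41.11% on Day3, 44.73% on Day5, 23.89% on Day10 and 28.09% on Day12. Over all regions open in both Day0 libraries the share went from 54.56% to 39.34% in the Nanog path by Day12, and from 70.08% to 36.72% in NanogN70 by Day10. The MEF-open class, also closed from Day3 on, had 28.94% in Nanog Day12. Peak numbers also differ between libraries, from 107038 in NanogN70 Day0 to 44126 in NanogN70 Day10, and their part in these shares was not tested.

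**Figure D5:**
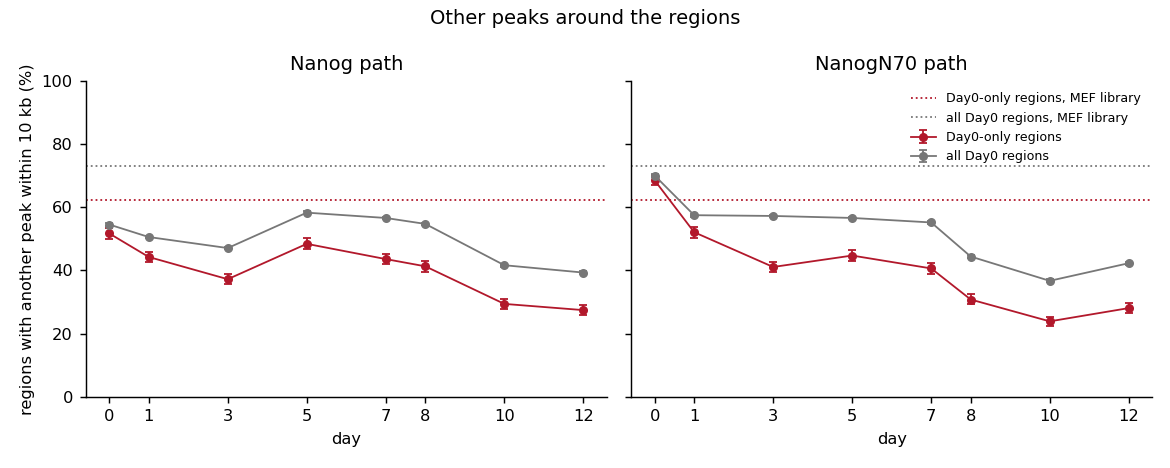
Share of regions (%, y axis) with another region open within 10 kb, by day (x axis), for Day0-only regions (red) and all regions open in both Day0 libraries (grey), with exact 95% binomial intervals and the MEF library as dotted lines. Red points start at 51.74% and 68.56% on Day0, near the grey ones, and end at 27.45% and 28.09% on Day12.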

How the data were processed

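ATAC-seq peak calls from 20 libraries were analysed. According to the submitters' processing notes the tools were Trim Galore 0.6.4, Bowtie2 2.4.5, SAMtools 1.16.1 and MACS 1.4.2, with genome build mm10. The authors deposited, per library, a peak list whose score is the scaled negative log10 of the MACS p-value and a summit list whose signal is the pileup (tag height) at the summit. Peaks were called per library, with no read totals, so counts per region and depth were not analysed here.

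Peaks sharing at least 1 bp were merged across libraries, and a region was open in a library with a peak in it. Members and gene lists were chosen with earlier results of these data known. A region's pileup was that of its highest summit. GRCm38 sequence and GENCODE M21 were used after checking that the last peak lay inside the reference on 21 chromosomes. Peaks on 14 other sequence names had no match and were left out of sequence and annotation counts. All 19 consensus sequences were searched within 25 bp of the Day0 summit with the higher pileup (for all regions, the highest summit in any library). Repeats are the soft-masked bases of the reference. Shares carry exact (Clopper-Pearson) 95% intervals, and no test between conditions was made, since each day and path has 1 library. Scripts used Python 3.11.15, NumPy 2.4.6, pandas 2.3.3, SciPy 1.17.1 and matplotlib 3.10.9, and were tested on simulated peak sets.

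Regions named were the 10 members with the highest lower-of-both Day0 pileup relative to the library median, the 10 with the highest such Day1 pileup among those open in both Day1 libraries, the 8 highest near start sites, the 8 genes with most members, and up to 4 genes per list. A region took the name of the gene that holds it, otherwise of the nearest start site. Shares by Day0 pileup and by GC content, the Nanog exons and the octamer and TEAD shares under other settings were added after seeing the data. Gene lists covered interferon, NF-kB, AP-1 and serum, TGF-beta and YAP, p53, pluripotency and fibroblast genes and markers of 6 other cell types.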

Additional observations from a re-analysis of the deposited data

How the results depend on the processing

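With only peaks of a score of at least 100 in every library, 1577 regions met the rule, and they are not a subset of the 3311, since weak peaks in the libraries that had to be closed were also dropped and 878 of the 3311 had a Nanog Day0 score that high. Of the 1577, 20.8% were open in Nanog Day1 and 34.75% in NanogN70 Day1. With the 44126 top-scoring peaks of each library these shares were 29.36% and 40.17%, and 13.34% held AP-1. Without Nanog Day0 in the rule there were 21680 regions, with 7.851% and 25.84% open on Day1, 4.978% within 2 kb of a start site and 8.493% with AP-1. Without NanogN70 Day0 there were 6245, with 16.16% and 21.39% open on Day1. With start sites taken within 1 kb the share near them was 1.42%, and with AP-1 sought within 50 bp it was 22.56%, against 20.31% of all Day0 regions. In each of these settings that recomputed both Day1 shares, the NanogN70 share was the larger. Leaving out 1 ESC library gave 3315 to 3332 regions, Day1 shares of 23.14 to 23.25% and 37.36 to 37.5%, 3.825 to 3.842% near start sites and 11.79 to 11.9% with AP-1. Without NanogN70 Day3 there were 3417 regions, with 23.85% and 38.63% open on Day1. Merging peaks within 200 bp gave 3024 regions and not merging gave 3967. Over the settings added after seeing the data, the octamer share lay between 1.315% and 2.093% and the TEAD share between 5.914% and 8.241%.

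No paired analysis was made. Both paths were sampled on the same days, but only the ESC libraries carry replicate numbers and every other group is 1 library. Depth is unknown, so an absent peak does not show closed chromatin, and peaks near the calling threshold decide many members. Day0 and Day1 libraries of a path differ in peak number. With the same number of top-scoring peaks in each library, the Day1 shares were 29.36% and 40.17%, in place of 23.23% and 37.45%. The part of read depth in these shares was not tested.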
